A study of Mus musculus with 16 samples.

Results

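The interleukin genes on the array comprise every gene whose platform symbol begins with Il and a digit, apart from Il33, Il7r and Il1r2, which the selection leaves out. They number 70 of the 18193 genes with a single symbol. By their products, 32 are ligands, 34 are receptor chains and 4 are others: the antagonists Il1rn and Il18bp, the enzyme Il4i1, and Il1bos, a transcript antisense to Il1b. The choice used symbols and no measured value, although it was made with earlier results of these data known, and each gene is represented by its probe set with the highest mean value, called its brightest.

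Expression had been measured in left lungs taken from male Balb/c mice aged 15 weeks, for which the labels name no engineered allele. Mice were exposed in utero, as adults, at both times or at neither to sidestream cigarette smoke, the smoke from the burning tip that makes up most second-hand smoke (SHS). The suspended particles reached 10 mg/m3, each day's exposure took 5 hours, all 7 days of the week were included, and control mice breathed filtered air. In AA mice air was breathed at both times, in AS mice air in utero and SHS as adults, in SA mice SHS in utero and air as adults, and in SS mice SHS at both times. The labels name 4 animals per group and give no litter, so p-values here treat the samples of a group as independent animals.

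Interleukins are secreted messengers through which leukocytes, epithelium and stroma direct inflammation, lymphocyte survival and repair. They act through receptors built from a few shared chains: the IL-1 and IL-17 families signal through MyD88 or Act1 to NF-kB and AP-1, whereas those of the common gamma chain, IL-6, IL-10 and IL-12 families signal through JAK kinases and STAT factors. In the lung, Il6, Il1a and Il1b are early inflammatory signals, Il4, Il5 and Il13 drive allergic airway responses, and Il7 and Il15 maintain lymphocytes.

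The promoters of the genes that the results below turn on are shown because they hold the sites at which such signals could be read. Of 6 genes looked up, RefSeq's table for GRCm38.p6 held 4, each as a window from 250 bases before to 50 after an annotated start, on the plus strand. Il27ra and Il7 were the others. The windows are Il17rd at chr14:27038751-27039050, Il18r1 at chr1:40465756-40466055, Il4i1 at chr7:44836038-44836337 and Il6 at chr5:30012864-30013163. Capitals mark matches, on either strand, to an AP-1 motif (TGANTCA), a STAT motif (TTCNNNGAA) or an NF-kB motif (GGANTTTCC), and a search for the core of the aryl hydrocarbon receptor motif (GCGTG) found no match in them.
Il17rd: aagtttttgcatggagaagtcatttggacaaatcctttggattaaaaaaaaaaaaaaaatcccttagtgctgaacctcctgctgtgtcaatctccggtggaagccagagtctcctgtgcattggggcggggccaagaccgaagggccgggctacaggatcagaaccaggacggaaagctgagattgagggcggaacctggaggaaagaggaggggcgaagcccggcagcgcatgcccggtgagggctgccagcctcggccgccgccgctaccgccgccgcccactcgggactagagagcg
Il18r1: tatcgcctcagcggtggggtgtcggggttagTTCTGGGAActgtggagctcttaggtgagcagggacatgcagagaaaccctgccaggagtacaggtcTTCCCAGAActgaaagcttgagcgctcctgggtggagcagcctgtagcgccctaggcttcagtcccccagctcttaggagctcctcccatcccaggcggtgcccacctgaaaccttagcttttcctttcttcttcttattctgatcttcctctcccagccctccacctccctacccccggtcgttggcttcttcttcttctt
Il4i1: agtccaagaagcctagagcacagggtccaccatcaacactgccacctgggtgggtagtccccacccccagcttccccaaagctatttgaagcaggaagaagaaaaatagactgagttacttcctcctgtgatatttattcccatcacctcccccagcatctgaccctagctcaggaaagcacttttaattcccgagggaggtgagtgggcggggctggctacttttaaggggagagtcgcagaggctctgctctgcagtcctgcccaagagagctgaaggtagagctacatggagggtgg
Il6: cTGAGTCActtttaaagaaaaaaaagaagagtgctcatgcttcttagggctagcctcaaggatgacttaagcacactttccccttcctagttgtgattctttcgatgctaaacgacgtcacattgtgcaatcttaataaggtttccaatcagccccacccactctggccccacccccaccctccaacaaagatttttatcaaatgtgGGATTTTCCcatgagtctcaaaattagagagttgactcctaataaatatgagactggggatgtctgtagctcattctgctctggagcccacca

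The Il6 window held 1 AP-1 match and 1 NF-kB match, and that of Il18r1 held 2 STAT matches, with no match in the windows of its other 2 annotated starts. The Il18r1 window was chosen for its matches. The windows of Il17rd and Il4i1 held none of these letters. Among all 32851 promoter windows of this length, 7.81% held the AP-1 motif, 8.3% the STAT motif, 1.25% the NF-kB motif and 32.4% the aryl hydrocarbon receptor core.

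The 16 arrays had medians of 6.902 to 6.934 on the log2 scale, and their number, not a read depth, limits the precision. AS replicates 3 and 4 differed by a root mean square of 0.098 over the most variable bright probe sets, and SS replicates 1 and 2 by 0.072, against 0.313 to 0.739 in the other 22 pairs within groups. These near-identical pairs were each averaged into 1 sample, so the groups held 4 (AA), 3 (AS), 4 (SA) and 3 (SS) samples. Divided by the same measure over the least variable bright probe sets, the difference was 2.84 to 3.06 between AS replicates 3 or 4 and AS replicates 1 or 2. In the remaining pairs that were not near-identical it was 3.69 to 5.96. The averaged AS pair thus differed from the other AS samples comparatively more at probe sets that vary little elsewhere. The cause was not tested. Lung markers were bright, with mean log2 values of 15.07 for Sftpc of alveolar type 2 cells, 14.95 for Scgb1a1 of club cells and 14.41 for Ager of alveolar type 1 cells. Because the samples were whole lung, fewer cells of a type and less RNA per cell cannot be told apart.

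Signal from the interleukin probe sets was low for most ligands. Of the 70 genes, 24 had a mean log2 value above 6.917, the median of all probe sets, and these included 16 of the 34 receptor chains and 6 of the 32 ligands. Among the receptor chains above it were Il6st, the signalling chain gp130 of the IL-6 family (mean log2 value 11.87), Il18r1, the binding chain of the IL-18 receptor (11.79), and Il10rb, a shared chain of the IL-10 family receptors (10.82). Il18, an epithelial IL-1 family cytokine, had 10.06 and Il1r1, the IL-1 receptor, had 10.04. Brightness also depends on each probe set, so these values are not an order of RNA abundance.

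**Figure D1:**
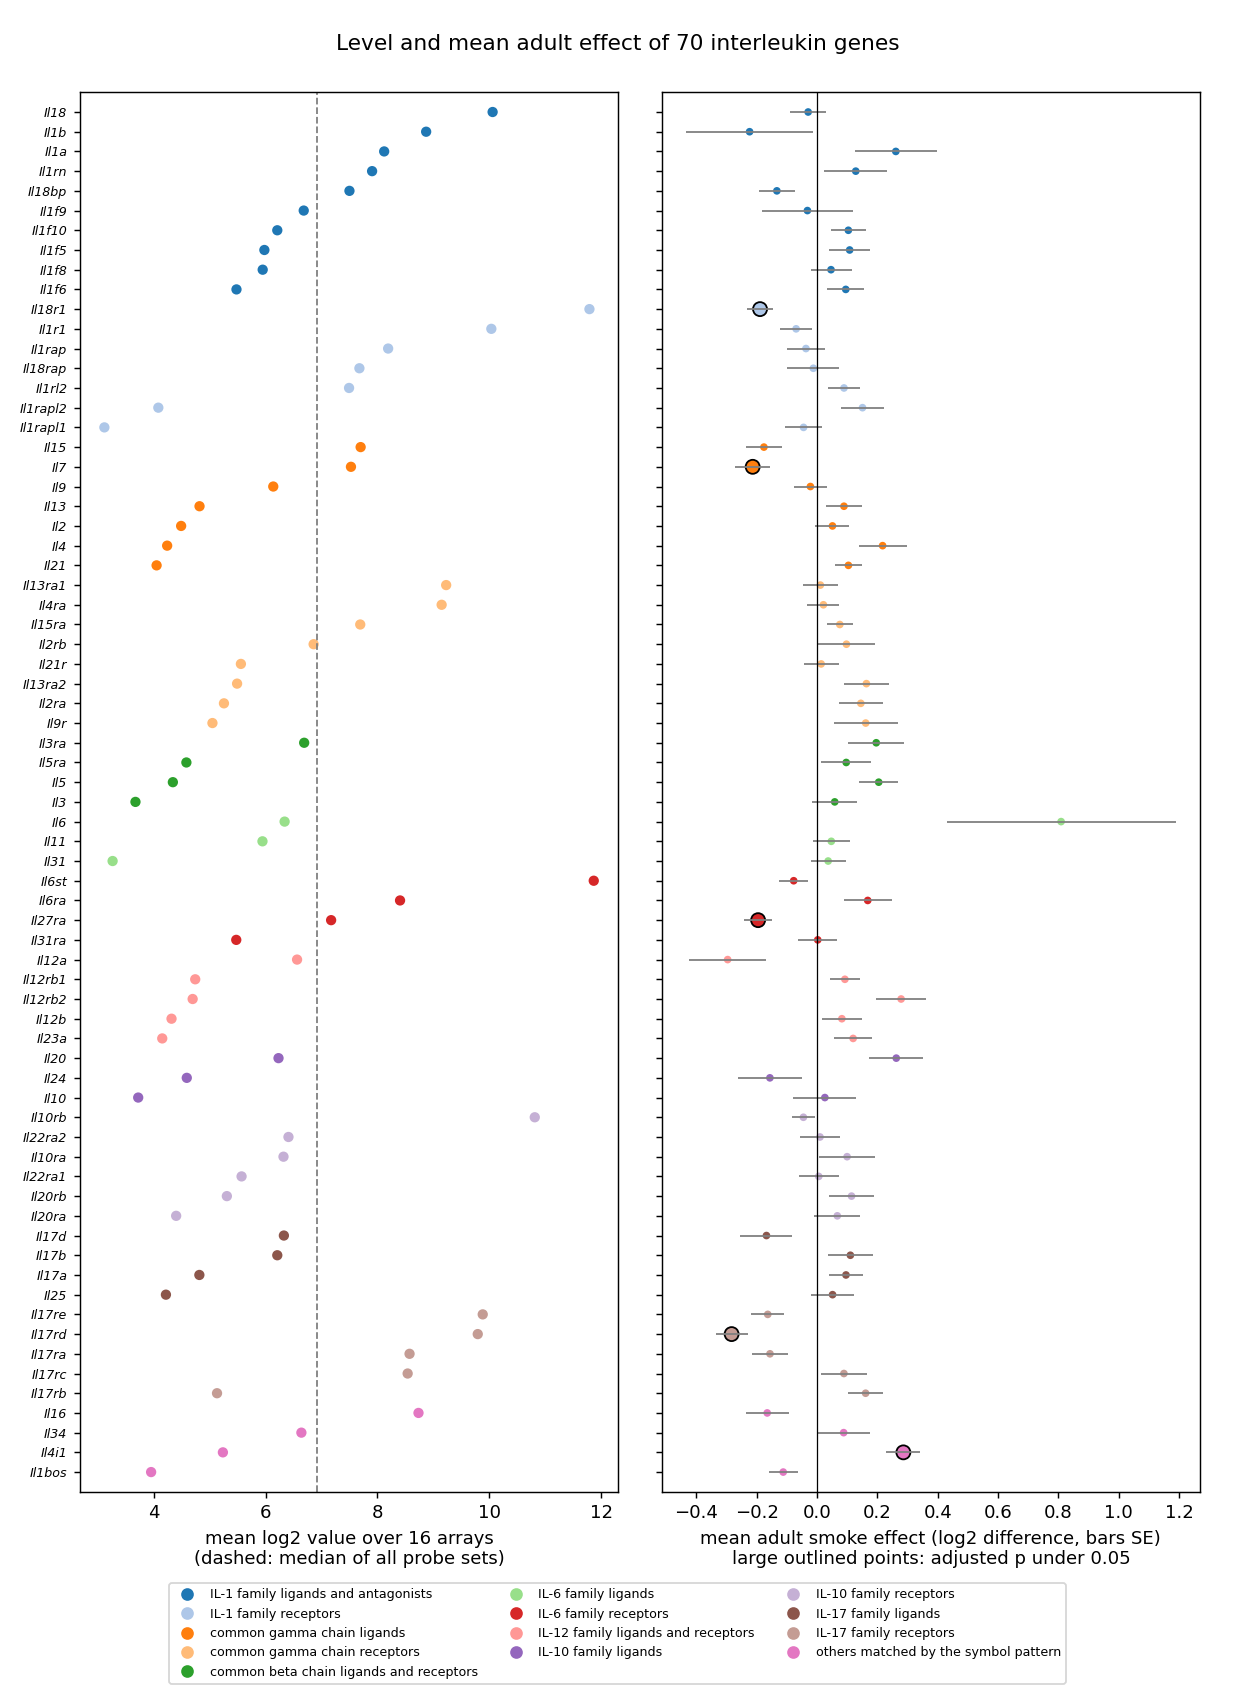
Mean log2 value over the 16 arrays (left) and mean adult smoke effect as a log2 difference with its standard error (right) for each of the 70 interleukin genes, coloured by role. Large outlined points on the right mark the 5 genes past an adjusted p of 0.05: Il18r1, Il7, Il27ra and Il17rd lie below 0 and Il4i1 above it, while Il6 lies farthest to the right with a wide error bar.

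Few interleukin genes passed the threshold in the comparisons of adult SHS with air. After air in utero (AS minus AA), 1 of 70 passed an adjusted p of 0.05, against 1.55% of all probe sets and 1.12% of the brightest probe sets of all genes (0.594% higher). In mice exposed in utero (SS minus SA), 2 of 70 passed, both lower, against 1.64% and 1.91% (1.04% lower). Over the mean adult effect, the average of those differences, 5 of 70 or 7.14% passed, 1 higher and 4 lower, against 5.95% and 6.25% (2.86% higher and 3.39% lower). At an unadjusted p under 0.05 (limma) there were 15 (21.4%) in AS minus AA, against 18.9% of all genes. The shares were 15.7% against 15.5% in SS minus SA and 28.6% against 25.9% over the mean adult effect. All these shares are near the background and show nothing particular to interleukin genes. The families below hold at most 10 genes in a role group, so a count of 0 called there is near the background too. With 3 or 4 samples per group, a gene that missed the threshold is not thereby shown to be unchanged. The 5 genes were the receptor chains Il17rd, Il27ra and Il18r1 and the lymphocyte survival factor Il7, all lower, and the enzyme Il4i1, higher.

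Il17rd encodes a receptor of the IL-17 family, also known as Sef, that restrains fibroblast growth factor signalling. Its brightest probe set read 9.90, 10.02, 9.88 and 9.92 in AA and 9.90, 9.64 and 9.76 in AS. It read 9.82, 9.97, 10.07 and 9.92 in SA and 9.55, 9.54 and 9.53 in SS. The SS samples lay below every other sample, while AS overlapped AA. Il17rd fell by 0.41 ± 0.08 (SE) on the log2 scale, or 1.32-fold, in SS against SA (adjusted p = 0.0131, n = 3 and 4), and by 0.28 ± 0.05 over the mean adult effect (adjusted p = 0.00942). AS minus AA was -0.16 (adjusted p = 0.243).

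The dimmer of the 2 Il17rd probe sets, with a mean of 5.81, gave another picture. There AS read 5.98 to 6.02 and lay above all AA samples (5.76 to 5.89), and the mean adult effect was 0.07 (adjusted p = 0.334). SS minus SA was -0.04 (adjusted p = 0.832), and SS was lower than AS by 0.31 (adjusted p = 0.048), a comparison in which the brightest gave -0.23 (adjusted p = 0.221). With the mean of both probe sets the mean adult effect was -0.11 (adjusted p = 0.104), while that call held in 21 of 22 alternatives. SS minus SA held in 20 of 23 alternatives, the mean of both probe sets among them. It needed all 3 SS samples, however. Its adjusted p was 0.0575 without the averaged replicates 1 and 2, 0.0789 without replicate 3 and 0.0523 without replicate 4.

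The other IL-17 receptor chains did not pass. Il17re, a chain of the epithelial IL-17C receptor, had 9.80 to 10.06 in AA, 9.66 to 9.84 in AS, 9.90 to 10.10 in SA and 9.80 to 9.92 in SS, so exposed and air samples overlapped in both pairs of groups. Its mean adult effect was -0.16 ± 0.05 (adjusted p = 0.0825). Its other probe sets differed, with 0.02 (adjusted p = 0.90) at the next brightest, where AS minus AA was 0.17 against -0.17 at the brightest, and -0.25 (adjusted p = 0.181) at the dimmest. Il17rb, the receptor of IL-25, read 4.86 to 5.15 in SA and 5.20 to 5.30 in SS without overlap, and SS minus SA was 0.26 ± 0.08 (adjusted p = 0.16). Of the 4 IL-17 ligands none passed, and the largest mean adult effects were -0.17 in Il17d, with 0.12 at its dimmer probe set, and 0.11 in Il17b.

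Il27ra, which pairs with gp130 to form the IL-27 receptor of T and NK cells, differed in SS mice. It read 7.34, 7.24, 7.32 and 7.22 in AA and 7.25, 7.27 and 7.31 in AS. The SA samples had 7.29, 7.28, 7.19 and 7.26, and the SS samples 6.87, 6.99 and 6.74. All 3 SS samples were lower than all 11 others, which spanned 7.19 to 7.34. Il27ra fell by 0.39 ± 0.07, or 1.31-fold, in SS against SA (adjusted p = 0.00953, n = 3 and 4). SS was also lower than AS by 0.41 ± 0.07, or 1.33-fold (adjusted p = 0.0128, n = 3 and 3), while AS minus AA was 0.00 (adjusted p = 0.981). Those comparisons share the SS samples.

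The interaction, which asks whether the adult effect differed by in-utero exposure, was -0.38 ± 0.09 for Il27ra (adjusted p = 0.152). The difference between those effects was therefore not called. The mean adult effect was -0.20 ± 0.05 (adjusted p = 0.0289) and was lost on leaving out any one of 6 samples (AA 1, AS 1, SA 1, SA 2, the averaged SS 1 and 2, or SS 4), with adjusted p of 0.0515 to 0.0739. SS minus AS was lost without SS 4 (adjusted p = 0.0814), without the averaged SS 1 and 2 (0.0594) and with only those groups in the fit (0.114). SS minus SA stayed past the threshold in all 23 alternatives, with a highest adjusted p of 0.0493.

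Il6st, which encodes gp130, the partner of Il27ra, had a mean adult effect of -0.08 (adjusted p = 0.336). At its next brightest probe set, with a mean of 10.61, AS (10.259 to 10.504) lay below all AA samples (10.662 to 11.159). SS (10.625 to 10.683) lay within the SA range there (10.482 to 10.775). At the other dimmer Il6st probe sets AS and AA overlapped. Il6ra, the binding chain for IL-6, read 8.38, 8.27, 8.05 and 8.20 in SA and 8.61, 8.77 and 8.63 in SS. The SS samples lay above all SA samples, and AA (8.27 to 8.67) and AS (8.06 to 8.48) overlapped each other. SS minus SA was 0.45 ± 0.11, or 1.36-fold (adjusted p = 0.0655), AS minus AA was -0.11 and the interaction was 0.56 ± 0.16 (adjusted p = 0.225). The dimmer Il6ra probe set was higher by 0.26 ± 0.07 over the mean adult effect (adjusted p = 0.039), against 0.17 at the brightest (adjusted p = 0.207), and gave 0.35 in SS minus SA (adjusted p = 0.0954). Il6ra passed in SS minus SA at its brightest probe set with 1 probe set tested per gene (adjusted p = 0.0477), and as the mean of its 2 probe sets (0.40, adjusted p = 0.0434).

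**Figure D2:**
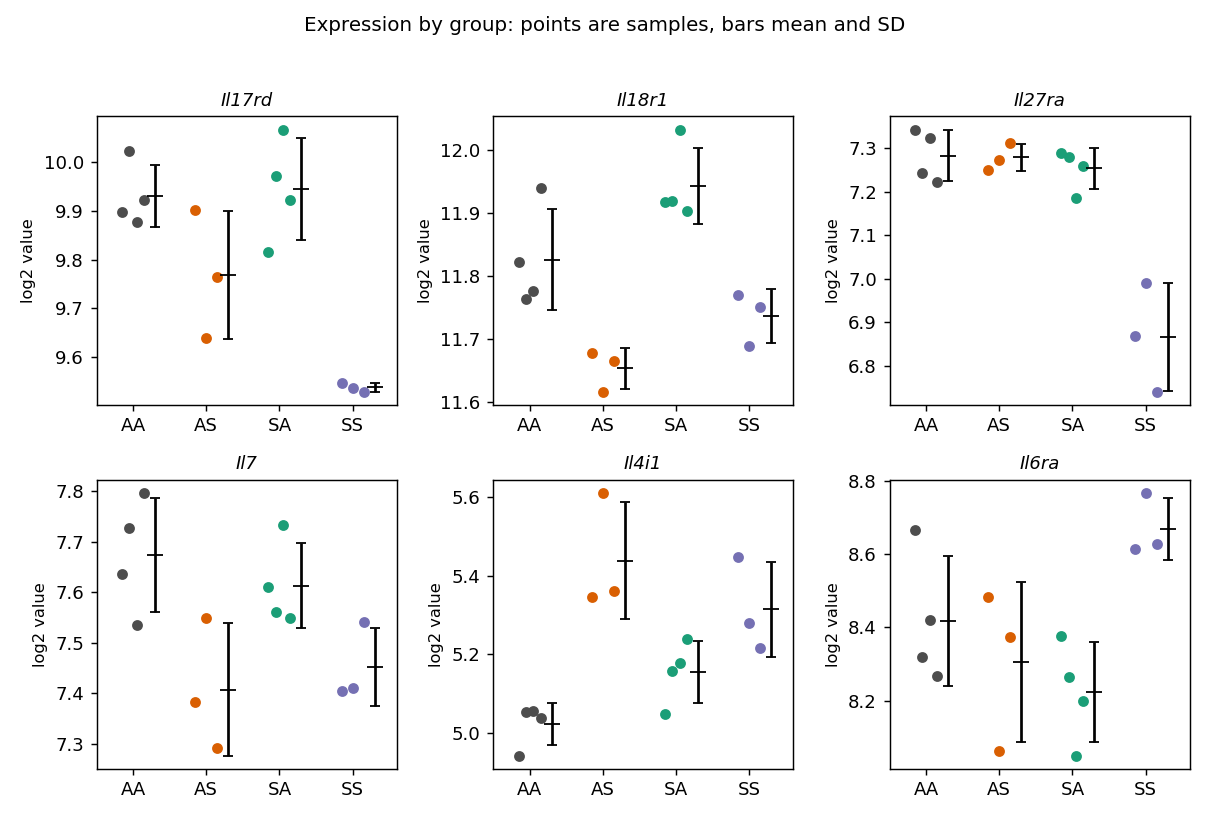
Log2 values of Il17rd, Il18r1, Il27ra, Il7, Il4i1 and Il6ra in each sample, by group, with the mean and SD of each group as bars. Il27ra and Il17rd are lowest in the 3 SS samples, Il18r1 and Il7 have lower means after adult SHS (AS and SS) than in the matching air groups, and the mean of Il4i1 is highest in AS.

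Il18r1 was lower after adult SHS in both in-utero groups. It read 11.82, 11.76, 11.78 and 11.94 in AA and 11.68, 11.62 and 11.67 in AS. The SA samples had 11.92, 11.92, 12.03 and 11.90 and the SS samples 11.77, 11.69 and 11.75. In neither pair of groups did smoke-exposed and air samples overlap. Il18r1 fell by 0.19 ± 0.04, or 1.14-fold, over the mean adult effect (adjusted p = 0.0252), with -0.17 in AS minus AA (adjusted p = 0.154) and -0.21 in SS minus SA (adjusted p = 0.127). The call was lost without SS 3 (adjusted p = 0.0754) or SS 4 (0.0516).

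Within the rest of the IL-1 family, 0 of the 10 ligands and antagonists and 0 of the other 6 receptor chains passed in any of the 6 comparisons at the brightest probe set. Il1rl2, 1 of those chains, passed over the mean adult effect at its dimmer probe set (0.20, adjusted p = 0.0485). Il1b, the inflammasome-processed cytokine of myeloid cells, spread widely, from 8.56 to 9.45 in AA, 8.37 to 10.02 in AS and 8.62 to 9.40 in SA, but only from 8.46 to 8.58 in SS. Its SD was 0.84 in AS and 0.06 in SS, and the difference in spread was not tested. SS minus SA was -0.46 ± 0.30 (adjusted p = 0.526). Il1a, the alarmin partner of Il1b, read 8.42, 9.04 and 8.001 in AS against 7.86 to 8.34 in AA, and AS minus AA was 0.40 ± 0.19 (adjusted p = 0.252). Il1rapl2, an orphan receptor, had a mean adult effect of 0.15 (adjusted p = 0.195), and Il18 had -0.03 (adjusted p = 0.792).

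Il6, the acute-phase cytokine, had the largest differences of the 70 genes in AS minus AA and SS minus AS, and the largest spread. It read 5.75, 6.76, 6.95 and 5.90 in AA and 7.67, 8.99 and 6.24 in AS. In SA it read 5.21, 5.52, 5.22 and 6.95, and in SS 5.92, 5.75 and 6.47. AS replicates 1 and 2 lay above every other sample, while the averaged AS replicates 3 and 4 lay within the AA range. AS minus AA was 1.30 ± 0.54, or 2.46-fold (adjusted p = 0.198), 0.62 without AS replicate 2 and 1.99 without the averaged AS replicates 3 and 4 (adjusted p = 0.0893). SS minus AS was -1.59 ± 0.57 (adjusted p = 0.235), -0.91 without AS replicate 2 and -2.29 without the averaged pair (adjusted p = 0.0619). The mean adult effect of Il6 was 0.81 ± 0.38 (adjusted p = 0.201). With array weights Il6 passed in SS minus AS (-1.80, adjusted p = 0.0391) and over the mean adult effect (0.96, adjusted p = 0.0482), but not in AS minus AA (1.49, adjusted p = 0.0843). The pooled SD between samples was 0.85 for Il6 and 0.47 for Il1b, against a median of 0.124 over the 70 genes and 0.123 over all probe sets. Il11, another gp130 cytokine, had a mean adult effect of 0.05.

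**Figure D3:**
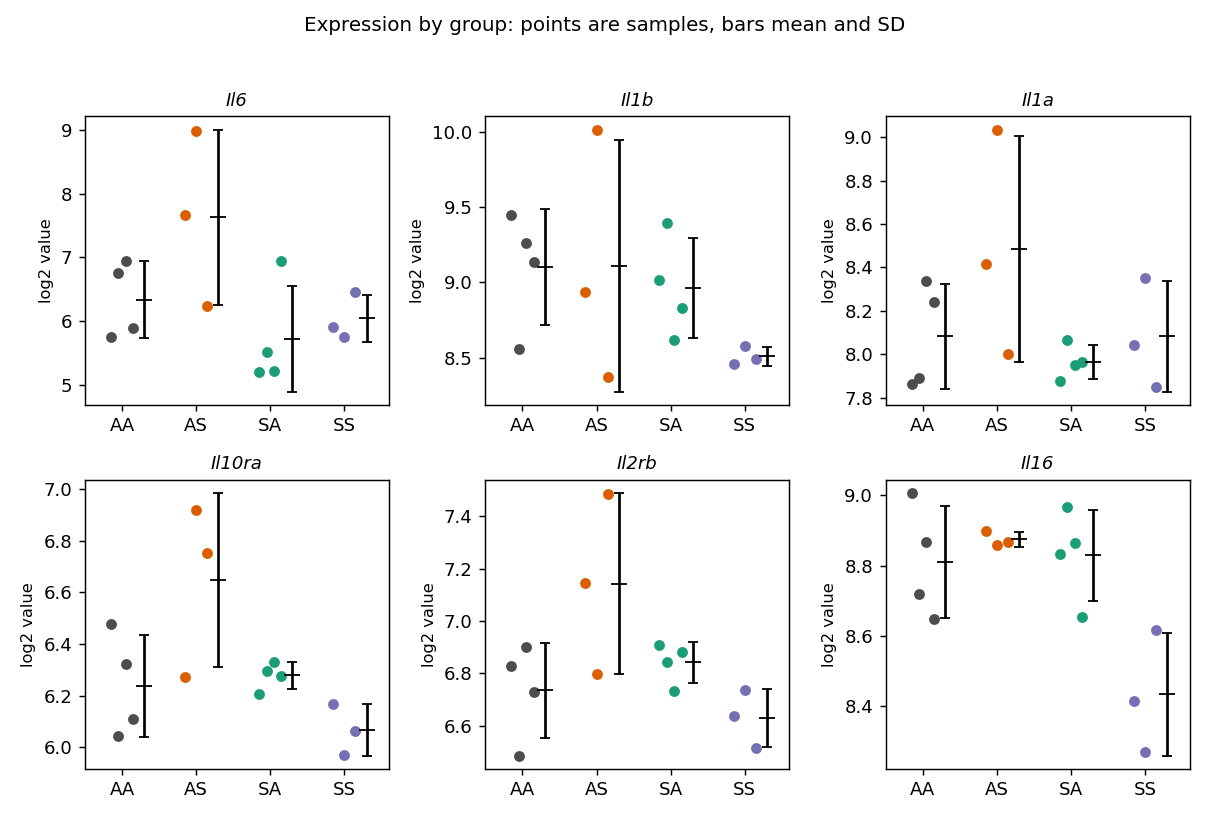
Log2 values of Il6, Il1b, Il1a, Il10ra, Il2rb and Il16 in each sample, by group, with the mean and SD of each group as bars. AS replicate 2 is the highest sample for Il6, Il1b and Il1a, and the SS samples are the lowest 3 for Il16.

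Il7, the survival factor made by stroma and epithelium, read 7.64, 7.73, 7.54 and 7.80 in AA and 7.38, 7.55 and 7.29 in AS. It read 7.61, 7.56, 7.73 and 7.55 in SA and 7.40, 7.41 and 7.54 in SS. The SS samples lay just below all SA samples, and 1 AS sample lay within the AA range. Il7 fell by 0.21 ± 0.06, or 1.16-fold, over the mean adult effect (adjusted p = 0.0442), with -0.27 in AS minus AA (adjusted p = 0.104) and -0.16 in SS minus SA (adjusted p = 0.393). It held in 10 of 22 alternatives and was lost without any one of 11 samples, all except AA 3, AS 2 and SA 4 (adjusted p of 0.0558 to 0.108). It was lost after a further quantile normalization too (0.078). The dimmer Il7 probe set had a mean adult effect of -0.14 (adjusted p = 0.202).

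Of the other genes grouped here with the common gamma chain, Il13 and its receptors included, 0 of 6 ligands and 0 of 8 receptor chains passed. Il15, which maintains NK and memory T cells, read 7.45 to 7.62 in SS and 7.75 to 7.89 in SA without overlap, and SS minus SA was -0.28 ± 0.09 (adjusted p = 0.129). Il2rb, the receptor chain shared by IL-2 and IL-15, read 7.15, 6.80 and 7.49 in AS and 6.64, 6.74 and 6.52 in SS, so every AS sample was above every SS sample. SS minus AS was -0.51 ± 0.14 (adjusted p = 0.113) and the interaction was -0.62 ± 0.19 (adjusted p = 0.262). The other Il2rb probe set, with a mean of 6.76 against 6.86, overlapped between AS (6.76 to 7.30) and SS (6.62 to 6.89) and gave -0.32 (adjusted p = 0.309). Its SS minus SA was 0.14, against -0.21 at the brightest, and its interaction was -0.32 (adjusted p = 0.638). The T helper type 2 cytokine Il4 had a mean adult effect of 0.22 ± 0.08 (adjusted p = 0.111) at a mean log2 value of 4.24, and its binding chain Il4ra had 0.02. Il13ra1, which joins Il4ra in the receptor for IL-4 and IL-13, had 0.01, and Il13ra2, the decoy receptor of IL-13, had 0.16. At the next brightest Il13ra1 probe set, with a mean of 9.06, AS read 8.711, 9.198 and 8.709 against 8.993 to 9.135 in AA. SS (9.091 to 9.31) and SA (9.075 to 9.241) overlapped there. At the next brightest Il4ra probe set, with a mean of 8.745, SS (8.675 to 8.749) lay above all SA samples (8.485 to 8.597). AS (8.502 to 9.438) and AA (8.497 to 8.798) overlapped there. At their brightest probe sets, all 8 receptor genes of this group, Il13ra1 and Il13ra2 among them, had a mean adult effect above 0, with a median of 0.09 and none called. Of all 70 interleukin genes 47 were above 0, and the median over all genes was 0.005.

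The common beta chain group, which serves eosinophils and mast cells, likewise had 4 of 4 members above 0 over the mean adult effect and 0 called. Il5, the eosinophil growth factor, read 4.10 to 4.35 in AA and 4.36 to 4.55 in AS without overlap, and its mean adult effect was 0.20 ± 0.07 (adjusted p = 0.0742). Il3ra had 0.20 ± 0.09 (adjusted p = 0.205), of which the averaged AS replicates 3 and 4 gave the highest value, 7.29, against 6.35 to 6.71 in every other sample.

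Il4i1, the 1 gene that was called higher, encodes a secreted enzyme of antigen-presenting cells that breaks down phenylalanine and dampens T cells, and is no cytokine. It read 4.94, 5.06, 5.06 and 5.04 in AA and 5.35, 5.61 and 5.36 in AS. In SA it read 5.05, 5.16, 5.18 and 5.24, and in SS 5.45, 5.28 and 5.22. AS lay above all AA samples, and SS overlapped SA. Il4i1 rose by 0.41 ± 0.08, or 1.33-fold, in AS against AA (adjusted p = 0.024, n = 3 and 4) and by 0.29 ± 0.06 over the mean adult effect (adjusted p = 0.0118). SS minus SA was 0.16 (adjusted p = 0.392), and the interaction was -0.26 (adjusted p = 0.511). The AS minus AA call was lost without AA 1 (adjusted p = 0.057), AA 2 (0.0605) or AS 2 (0.0504), and with only those groups in the fit (0.113), while the mean adult effect held in all 21 alternatives. The 1 probe set of Il4i1 had a mean log2 value of 5.24, below the median probe set (6.917). Over all probe sets below it, the median difference was 0.063 in AS minus AA and 0.053 over the mean adult effect.

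Il16, a chemoattractant for CD4+ cells, read 8.83, 8.97, 8.87 and 8.65 in SA and 8.42, 8.27 and 8.62 in SS. AA had 8.65 to 9.01 and AS 8.86 to 8.90, so the SS samples were below all others. SS minus SA was -0.40 ± 0.10, or 1.31-fold (adjusted p = 0.0657), SS minus AS was -0.44 ± 0.11 (adjusted p = 0.0711) and the interaction was -0.46 (adjusted p = 0.275). These missed the threshold, although Il16 passed in SS minus SA without SA 4 (adjusted p = 0.0381) or SS 4 (0.0489). Of its 3 dimmer probe sets, the brightest gave -0.39 in SS minus SA (adjusted p = 0.0561) and the others 0.03 and 0.01. Il1bos had -0.20 ± 0.07 in AS minus AA (adjusted p = 0.139).

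In the IL-12 family, 0 of 5 genes passed. Il12a, the p35 subunit of IL-12 and IL-35, read 6.16, 5.90 and 6.45 in SS against 6.37 to 6.89 in SA, and SS minus SA was -0.58 ± 0.18, or 1.5-fold (adjusted p = 0.133). Il12rb2, the chain that gives T helper type 1 cells their response to IL-12, read 4.36 to 4.63 in AA and 4.70 to 5.05 in AS without overlap. AS minus AA was 0.39 ± 0.12 (adjusted p = 0.0947) and the mean adult effect 0.28 ± 0.08 (adjusted p = 0.0598), which passed with 1 probe set per gene (adjusted p = 0.0498) and without SA 4 (0.0378).

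In the IL-10 family, 0 of 3 ligands and 0 of 6 receptor chains passed at the brightest probe set. Il10ra, the IL-10 binding chain of leukocytes, read 6.48, 6.04, 6.32 and 6.11 in AA and 6.27, 6.92 and 6.75 in AS. It read 6.21 to 6.33 in SA and 5.97 to 6.17 in SS, so SS lay below both SA and AS. SS minus AS was -0.58 ± 0.14, or 1.49-fold (adjusted p = 0.0705), and AS minus AA was 0.41 ± 0.13 (adjusted p = 0.114). A dimmer Il10ra probe set was lower in SS than in AS by 0.43 ± 0.09 (adjusted p = 0.0409). The dimmest of the 3, with a mean of 4.12, gave -0.16 there (adjusted p = 0.596) and 0.15 in SS minus SA, where the brightest gave -0.21. Without AS replicate 1 the brightest passed in SS minus AS (-0.77, adjusted p = 0.00814), in AS minus AA (0.60, adjusted p = 0.0217) and in the interaction (-0.81, adjusted p = 0.0395). That sample was the lowest in AS at the brightest (6.27) but the highest in AS at the dimmer probe set called in SS minus AS (6.69). In AS minus AA the 2 dimmer probe sets gave 0.32 and 0.41, neither called. The mean of all 3 passed in AS minus AA (0.38, adjusted p = 0.0251) and in SS minus AS (-0.39, adjusted p = 0.0394). Il20, which acts on epithelium, had a mean adult effect of 0.26 ± 0.09 (adjusted p = 0.0909), Il24 had -0.16, Il20rb 0.11 and Il10rb -0.05.

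Markers of NK cells, B cells and monocytes had lower means in every SS sample than in any SA or AS sample, as several of these genes did. The mean of 6 of 7 NK cell markers found on the array was 7.55 to 7.86 in SS, 7.93 to 8.32 in SA, 7.87 to 8.52 in AS and 7.80 to 8.44 in AA. The mean of 4 of 5 B cell markers was 7.19 to 7.73 in SS, 7.96 to 8.61 in SA, 8.17 to 8.97 in AS and 7.74 to 8.66 in AA. T cell markers, 7 of 8, had 7.15 to 7.32 in SS, 7.25 to 7.47 in SA, 7.33 to 7.67 in AS and 7.26 to 7.75 in AA. Of these, none passed in SS minus SA, and the B cell receptor chain Cd79a was lower in SS than in AS by 1.31 ± 0.22 (adjusted p = 0.0125). Array values have no zero, and 5 of 6 NK, 3 of 4 B and 5 of 7 T cell markers were above the median probe set. Other markers past the threshold were Ccr7, listed with dendritic cells (-0.94), and Kit, listed with mast cells (-0.50), in SS minus AS. Tcf21, listed with fibroblasts, passed in SS minus SA (-0.43) and over the mean adult effect (-0.30). Their lists did not all follow: the 5 dendritic cell markers had a median of -0.01 in SS minus AS (-0.94 to 0.14). The 4 fibroblast markers had a median of -0.07 in SS minus SA (-0.43 to 0.03). The 7 mast cell markers had a median of -0.30 in SS minus AS, but only 1 of them was above the median probe set, and Kit itself had a mean log2 value of 11.33. The part of these cells, monocytes included, in the values of Il17rd, Il27ra, Il16, Il2rb, Il10ra and Il12a was not tested.

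Markers of myeloid cells were set beside the inflammatory cytokines in the same way. Markers of monocytes and interstitial macrophages, 5 of 6, had a mean of 9.25 to 9.37 in AA, 9.13 to 9.15 in AS, 9.08 to 9.37 in SA and 8.90 to 9.01 in SS. The monocyte receptor Ccr2 fell by 0.57 ± 0.14 over the mean adult effect (adjusted p = 0.0305). It was the lowest of these 5 markers, whose median was -0.154 there (-0.575 to 0.033). In SS minus SA their median was -0.094 (-0.783 to 0.033). Neutrophil markers, 8 of 10, had 7.87 to 9.11 in AA, 8.08 to 9.10 in AS, 7.86 to 8.56 in SA and 8.29 to 8.56 in SS, with 0 called. Alveolar macrophage markers, 5 of 6, had 9.42 to 9.51 in AA, 9.29 to 9.46 in AS, 9.35 to 9.52 in SA and 9.35 to 9.42 in SS, with 0 called. Their part in the values of Il6, Il1b and Il4i1 was not tested.

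Across the 70 genes, AS minus AA and SS minus SA, between which no sample is shared, had the same sign in 45 (64.3%), against 65.8% of all genes. Of the 45, 30 were above 0 in both and 15 below 0 in both, against 6150 and 5816 of all 18193 genes. The median was 0.06 in AS minus AA and 0.02 in SS minus SA, against 0.02 and -0.01 over all genes. Dim and bright probe sets differed here: the mean adult effect had a median of 0.09 over interleukin genes below the median brightness and -0.06 over those above it, and 0.05 and -0.03 over all probe sets below and above it. The part of brightness in the small differences above 0 among dim ligands, and in the rise of Il4i1, was not tested.

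**Figure D4:**
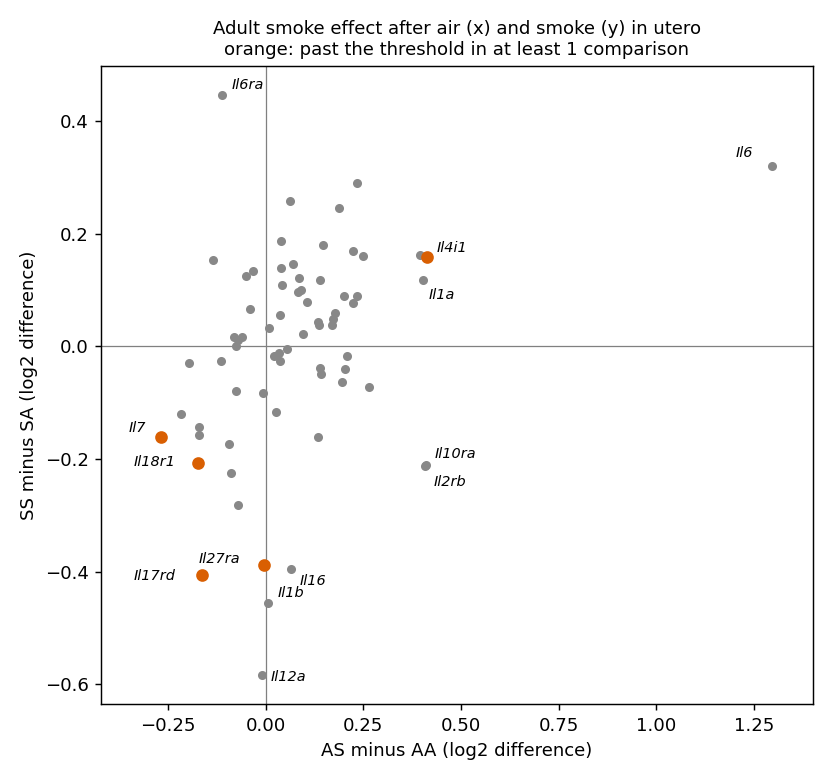
Log2 difference AS minus AA (horizontal), the adult SHS effect after air in utero, against SS minus SA (vertical), the adult effect after SHS in utero, 1 point for each of the 70 genes. Orange points passed the threshold in at least 1 comparison. Il18r1, Il7 and Il17rd lie below 0 on both axes and Il27ra lies near 0 on the horizontal axis and below 0 on the vertical one, while Il10ra and Il2rb lie to the right and below 0.

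Exposure in utero alone was addressed by SA minus AA. None of the 70 genes passed (limma, against 0.0% of all probe sets), and 0 had an unadjusted p under 0.05, against 4.94% of all genes. The lowest p-values among lower genes belonged to Il22ra2, a soluble decoy receptor of IL-22 (-0.19 ± 0.09, adjusted p = 0.798), Il1f9, an epithelial IL-36 cytokine (-0.39, adjusted p = 0.82), and Il21r (-0.15, adjusted p = 0.82). Those among higher genes belonged to Il18r1 (0.12, adjusted p = 0.811), Il4i1 (0.13, adjusted p = 0.854) and Il13ra1 (0.13, adjusted p = 0.854). Il6 had -0.61 ± 0.50 (adjusted p = 0.916), with SA replicate 4 at 6.95 and the other SA samples at 5.21 to 5.52.

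The effect of exposure in utero among mice exposed as adults was read from SS minus AS. Il27ra was the 1 of 70 genes that passed, against 0.968% of all probe sets and 0.764% of brightest ones (0.467% lower). In all, 49 genes were below 0 and 21 above it, with a median of -0.07, against -0.02 over all genes. The highest differences by p were in Il6ra (0.36, adjusted p = 0.194), Il1rap, the shared accessory chain of the IL-1 receptors (0.19, adjusted p = 0.389, and from -0.21 to 0.14 at its 4 dimmer probe sets), and Il1r1 (0.13, adjusted p = 0.504). In the interaction 0 of 70 passed (limma, against 0.131% of all probe sets and 0.115% of brightest ones), with 8 (11.4%) at an unadjusted p under 0.05, against 7.33% of all genes. Besides Il27ra, Il10ra (-0.62, adjusted p = 0.254) and Il2rb (-0.62, adjusted p = 0.262) had the lowest p among genes below 0, and Il6ra, Il22ra2 (0.29, adjusted p = 0.552) and Il1bos (0.17, adjusted p = 0.65) among those above it.

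The signal transducers downstream were read from a list of 43 JAK, STAT, SOCS, MyD88, IRAK and NF-kB pathway genes and related cytokines, of which 40 were matched. In AS minus AA 0 of 40 passed, against 1.12% of the brightest probe sets of all genes. The lowest p-values there were those of Tslp (-0.52 ± 0.13, adjusted p = 0.0516) and Osm, a gp130 cytokine (0.55 ± 0.14, adjusted p = 0.0619). In SS minus SA, 1 rose and 1 fell of 40, against 1.91% of the brightest probe sets of all genes. Stat5a, which carries IL-2 and IL-7 signals, read 7.997, 7.95, 7.90 and 7.92 in SA and 7.77, 7.63 and 7.65 in SS, without overlap, and fell by 0.26 ± 0.06 (adjusted p = 0.0434). The NF-kB inhibitor Nfkbia rose by 0.44 ± 0.07 there (adjusted p = 0.00719).

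Over the mean adult effect, 2 of 40 passed, against 6.25% of the brightest probe sets of all genes: Nfkbia rose and Tslp fell. Tslp, an epithelial cytokine that shares the IL-7 receptor alpha chain with Il7, read 7.28, 7.65, 7.39 and 7.31 in AA and 6.92, 6.95 and 6.78 in AS. It read 7.47, 7.08, 7.57 and 7.47 in SA and 7.04, 7.06 and 7.42 in SS. AS lay below all AA samples, and SS overlapped SA. Tslp fell by 0.38 ± 0.09 over the mean adult effect (adjusted p = 0.0261). In SA minus AA, SS minus AS and the interaction 0 of 40 passed, against 0.0%, 0.764% and 0.115% of the brightest probe sets of all genes. Nfkbia at -0.27 (adjusted p = 0.643) and Nlrp3 at -0.30 (adjusted p = 0.719) were lowest by p in SA minus AA. In SS minus AS Stat5a had -0.25 (adjusted p = 0.0917) and Osm -0.55 (adjusted p = 0.115), and in the interaction they had -0.33 (adjusted p = 0.174) and -0.49 (adjusted p = 0.467).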

How the data were processed

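Values came from 16 Affymetrix mouse expression arrays of left lung RNA. The authors deposited 1 log2 value per probe set and array, with array medians of 6.902 to 6.934, so already normalized between arrays. How they were normalized is not given in the sources used here. Limma is the tool named in the submitters' processing notes, without a version. Differences are relative to that normalization. No detection call was used.

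Of 45101 probe sets, 64 controls were left out and 45037 tested. Genes were named from the platform annotation, for the 34945 probe sets with a single symbol. The 70 genes had 111 probe sets, and 26 genes had several. One model with a mean per group was fitted to 14 samples by limma version 3.58.1 (R 4.3.3), using lmFit, then contrasts and eBayes, with 10 residual degrees of freedom, and tested on simulated data. P-values are two-sided and adjusted with the Benjamini-Hochberg method across the 45037 probe sets of each comparison. Errors given as ± are standard errors.

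The genes, the role groups, the signalling list and the marker lists were chosen with earlier results of these data known. Named genes were all those past the threshold, in each role group the 2 with the largest absolute mean adult effect and the brightest, and in each comparison the 3 with the lowest p in each direction; from the signalling list, those past the threshold and the 2 lowest by p. Others were named after their values were seen: Il6 in single comparisons and genes whose dimmer probe sets or alternatives differ. Alternatives counted all 16 arrays, added the replicate number as a block, changed the normalization, the filter, the probe set rule, the spread or the groups in the fit, or left out 1 sample.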

Additional observations from a re-analysis of the deposited data

Results flagged for a closer look

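In groups of 4 samples, 1 sample stood far from the others in 3 cases among the 39 named interleukin genes. Il12a read 6.37 in SA replicate 4, below the 6.87 to 6.89 of the other SA samples, and SA minus AA for Il12a was 0.03 with it. Il18r1 read 12.03 in SA replicate 3, above the 11.90 to 11.92 of the others. Il21r read 5.23 in the same SA replicate 3, below the 5.54 to 5.57 of the others. Over all 70 genes, 9 of 140 groups of 4 had such a sample, where chance gives about 1 in 20, and 3 of the 9 were in SA replicate 3. Groups of 3 (AS and SS) were not examined in this way.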

How the results depend on the processing

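No called result changed direction under any alternative: 169 of their values stayed past the threshold and 31 did not. Among values that were not called, 50 passed under an alternative, and the mean adult effect of Il10ra changed sign, to -0.005 with array weights. Counts of interleukin genes past the threshold moved by more than 1.5 times as follows. Counting all 16 arrays as separate samples, which treats near-identical arrays as independent, gave 4 in AS minus AA, 4 in SS minus SA, 8 over the mean adult effect, 4 in SS minus AS and 1 in the interaction. Adding the replicate block to those 16 arrays gave 4, 5, 8, 6 and 2. The replicate numbers did not pair the samples: arrays of the same number in other groups correlated at -0.157 to 0.251 over 24 pairs, and 5 of 16 arrays correlated best with their own number. With array weights 7 passed in SS minus SA, 8 over the mean adult effect and 6 in SS minus AS. Testing only probe sets above the median brightness, which keeps 24 of the genes and drops Il4i1, gave 0 in AS minus AA and 4 in SS minus SA, and 1 probe set per gene gave 4 in SS minus SA. The mean of all probe sets gave 2 in AS minus AA and 2 in SS minus AS, and only the groups compared gave 0 in each. Leaving out 1 sample at a time, the counts ran from 0 to 3 in AS minus AA, 1 to 3 in SS minus SA, 2 to 7 over the mean adult effect, 0 to 2 in SS minus AS, 0 to 1 in the interaction and 0 to 0 in SA minus AA, which had 0 under every alternative. Except where stated, the cause was not tested.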

Other observations

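Il1rl2, the receptor of the IL-36 cytokines, passed at its dimmer probe set over the mean adult effect (0.20 ± 0.06, adjusted p = 0.0485), while its brightest gave 0.09. Il1f9, one of those cytokines, ranged from 6.27 in AA replicate 2 to 7.53 in AA replicate 1, wider than its range over the SA and SS samples, 6.31 to 6.84.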
